A study of Homo sapiens with 6 samples.

Results

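The genes described here make the machinery that brings a nascent secretory or membrane protein into the endoplasmic reticulum (ER), adds its first sugars and packs it into vesicles for the Golgi. They are 42 listed genes, found in the deposited table by their gene symbol, out of 57773 genes. All 42 passed the filter on low counts, which left 17805 genes for testing, and the lowest count of any of them in any library was 171. RNA was sequenced from HEK293, a human cell line of embryonic kidney origin, in 3 libraries whose genotype label is a knockdown of the TRDMT1 gene and 3 whose genotype label is control. Per the labels' protocols the RNA went through a bisulfite conversion. Whether the counted reads came from converted RNA is not given in the sources used. TRDMT1, also called DNMT2, is a methyltransferase that places 5-methylcytosine in certain tRNAs, and the study set its knockdown against control. The labels give neither how the knockdown was made, nor whether it is 1 clone, nor a culture behind each library, so a p-value here speaks only of how the libraries vary, and that variation may be technical.

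As background, the signal recognition particle (SRP) catches a signal sequence as it leaves the ribosome and docks at its receptor on the ER. The Sec61 channel then threads the chain through the membrane, aided by Sec62, Sec63 and the translocon-associated protein (TRAP) complex, while signal peptidase cuts the signal off and oligosaccharyltransferase (OST) moves a preformed glycan onto asparagines. Folded cargo leaves in COPII vesicles, whose coat is laid down in layers: the GTPase SAR1, the inner SEC23 and SEC24 pair that reads cargo, and the outer SEC13 and SEC31 cage. Many of these genes are known targets of the unfolded protein response, the programme by which stressed ER raises its own capacity.

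Depth was 36455950, 36737468 and 40088993 counts for the libraries labelled knockdown and 26465603, 24776040 and 26802182 for those labelled control. TRDMT1 went against the labels: its level in the libraries labelled knockdown was 0.543, 0.547 and 0.544 RPKM, against 0.357, 0.439 and 0.276 RPKM in the libraries labelled control (log2 fold change 0.61 ± 0.21, adjusted p = 0.0705, edgeR). The column names of the deposited table, taken alone, would also swap the groups relative to the sample titles. Whether the labels are swapped was not tested. Every direction given here, a rise or fall included, is therefore between libraries as labelled. Control replicate 2 stood apart, with a TMM factor of 0.812 against 0.997 to 1.07 in the other 5 libraries, and replicates varied more in its group, with a biological coefficient of variation of 5.46% for knockdown and 32.0% for control as labelled. The epithelial keratin KRT8 (161 to 201 RPKM as deposited), KRT18 and vimentin were abundant in all 6 libraries, and the kidney factors PAX2 (0.91 to 1.85 RPKM) and LHX1 (1.66 to 5.80 RPKM) were present. Of genes that mark other cells, PTPRC had at most 2 counts, CDH5 at most 1, HBB had 0 and ALB 2 to 25, whereas the collagen gene COL1A1 stood at 0.55 to 4.8 RPKM.

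Of the 42 genes, 3 were higher in the libraries labelled knockdown, 10 were lower and 29 were not called (edgeR's quasi-likelihood test, adjusted p under 0.05 over all genes tested). Over all 17805 genes the same test called 9.29% higher and 14.7% lower, against 7.14% and 23.8% of the 42. The median log2 fold change, labelled knockdown minus labelled control, was −0.22 for the 42 genes and −0.04 for all genes. That median depended on the setting: it was −0.065 without control replicate 2 (0.0046 for all genes), −0.003 with GC and length trends removed (0.0041), and 0.116 with both changes (0.015). The 3 higher genes were SRPR, which makes the docking subunit of the SRP receptor, and SEC23B and SEC24D of the inner COPII coat. The 10 lower genes lay at almost every other step: SRP19, SRP54 and SRP72 of the SRP, SEC61G, SEC62, SEC63 and SSR4 at the channel, SPCS1 of signal peptidase, DAD1 of OST, and the GTPase SAR1B. The groups of levels did not overlap for 7 genes with the libraries labelled knockdown higher and for 14 with them lower, against 23.9% and 26.0% of all genes. Outside COPII, 1 of 32 genes was higher and 9 were lower. Of the 10 COPII genes 2 were higher and 1 lower, and the difference between these sets was not tested. With GC and length trends removed, 5 of the 32 were higher and 4 lower, and 2 of the 10 were higher and 0 lower. In RNA from whole cultures, fewer cells of one kind and less RNA per cell cannot be told apart. Leaving out replicate 1, 2 or 3 labelled knockdown left 2 calls higher and 2 lower each time (over all genes 1.87%, 1.94% and 1.71% higher and 5.12%, 5.43% and 4.96% lower). Without control replicate 1 there were 3 and 4 (3.64% and 7.32%), without control replicate 2 there were 9 and 16 (22.9% and 25.6%) and without control replicate 3 there were 5 and 14 (12.4% and 16.8%).

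Other fits to all 6 libraries gave the following counts, with the share of all genes called in the same direction after each. RLE factors called 3 higher (9.92%) and 9 lower (14.0%), the plain library total 3 (10.6%) and 6 (9.26%), upper-quartile factors 6 (11.3%) and 9 (13.0%), and DESeq2 6 (13.8%) and 12 (18.5%). No filter called 3 (5.27%) and 8 (6.4%), a filter of 1 CPM in 3 libraries 3 (10.7%) and 10 (16.2%), and a block for the replicate number 3 (6.21%) and 8 (10.5%). Limma on log2 RPKM called 4 and 6 at a pseudocount of 1 (12.9% and 8.58%) and at 0.1 (11.4% and 8.59%), and voom with sample weights 9 (27.6%) and 17 (29.7%). Of the 13 calls, the ones lost in any of these were SRP72, SEC63, SPCS1 and SAR1B.

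Levels are given as RPKM scaled by TMM, which divides each count by exonic length and by the adjusted library total. In the libraries labelled knockdown the highest mean levels were those of SRP9 (153 ± 35.0 RPKM), DDOST (139 ± 2.59 RPKM) and RPN2 (122 ± 3.50 RPKM), and the lowest were MAGT1 (1.87 ± 0.121 RPKM) and SSR4 (1.09 ± 0.119 RPKM; SD, n = 3). Libraries labelled knockdown lay close together, with a median coefficient of variation of 3.66% over the 42 genes, against 19.6% among those labelled control, and 40 of the 42 genes varied more among the libraries labelled control.

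**Figure D1:**
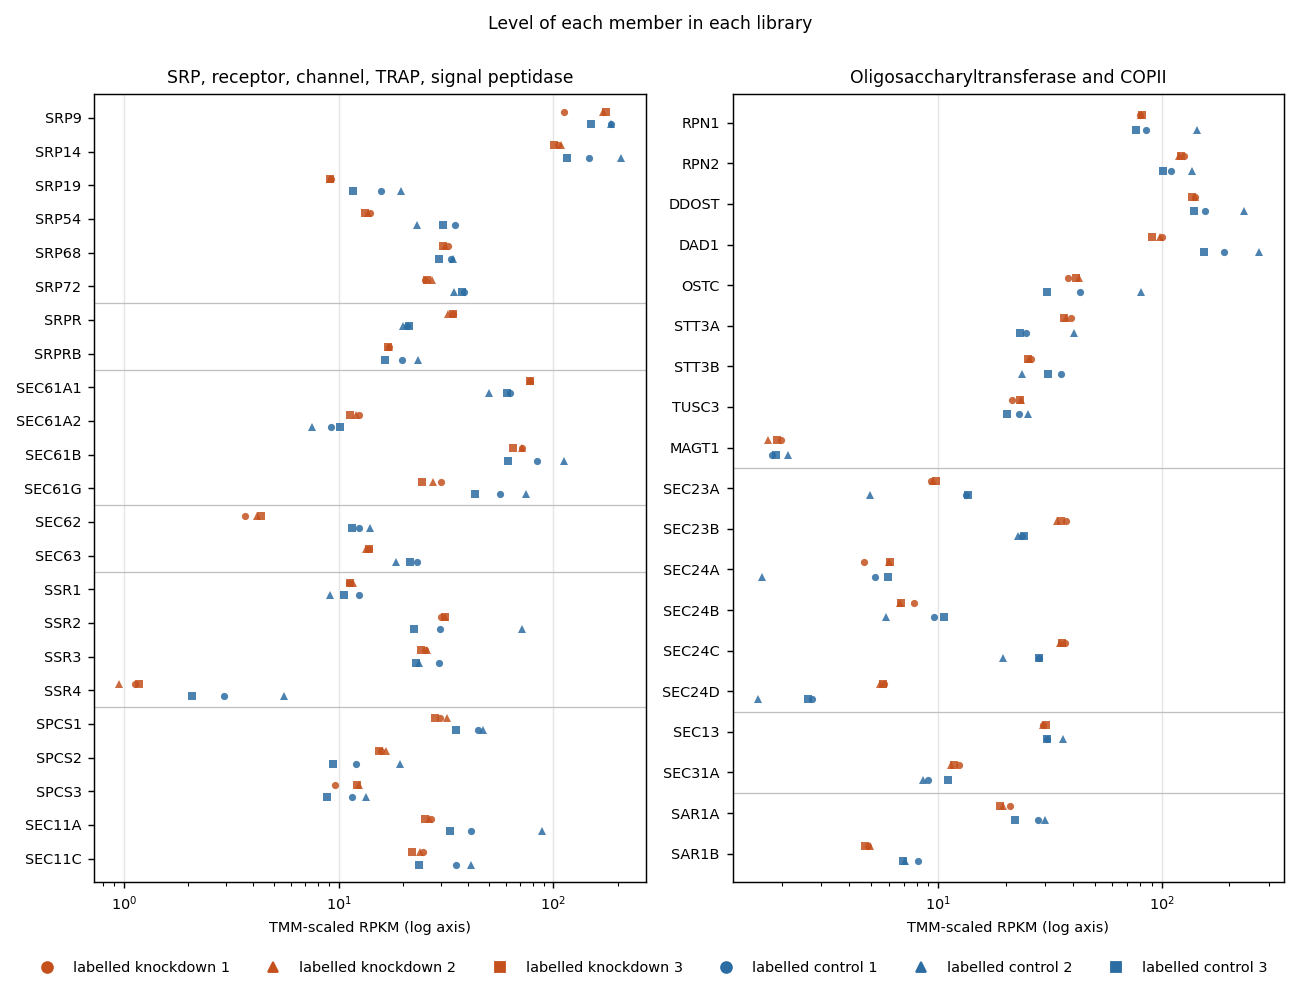
Level of each of the 42 genes in each of the 6 libraries, as TMM-scaled RPKM on a log axis, with libraries labelled knockdown in orange above those labelled control in blue and lines between complexes. The 3 orange points mostly sit together, while control replicate 2 (blue triangle) is often the highest or lowest point of its gene, as for SSR2 (71.7 RPKM) and SEC24A (1.62 RPKM).

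Among the 6 SRP proteins, 3 were lower in the libraries labelled knockdown, none was higher and 3 were not called. Beside this count, and those for each complex below, stand 14.7% lower and 9.29% higher over all genes. SRP54, the GTPase that holds the signal sequence, stood at 14.0, 13.7 and 13.2 RPKM in the libraries labelled knockdown, against 35.0, 23.1 and 30.6 RPKM in those labelled control. All 3 libraries labelled knockdown lay below all 3 labelled control. This was a 2.165-fold lower level (log2 fold change −1.11 ± 0.17, adjusted p = 0.00549, edgeR), on chromosome 14, whose 468 tested protein-coding genes had a median of −0.50.

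SRP19, which binds the SRP RNA so that SRP54 can join, stood at 9.22, 9.08 and 9.08 RPKM in the libraries labelled knockdown, against 15.8, 19.6 and 11.6 RPKM in those labelled control. Again there was no overlap, and the fall was 1.72-fold (−0.78 ± 0.19, adjusted p = 0.0292). That call ended with GC and length trends removed (−0.51 ± 0.15, adjusted p = 0.0586). SRP72, which with SRP68 forms the large heterodimer of the particle, stood at 25.3, 27.1 and 25.8 RPKM in the libraries labelled knockdown, against 38.5, 34.6 and 37.5 RPKM in those labelled control (−0.50 ± 0.11, adjusted p = 0.0185). Its partner SRP68 averaged 31.3 ± 0.776 RPKM in the libraries labelled knockdown and 32.2 ± 2.44 RPKM in those labelled control (−0.04 ± 0.12, adjusted p = 0.83). The SRP72 call ended with GC and length trends removed (−0.05 ± 0.08, adjusted p = 0.717), where SRP68 was at −0.28 ± 0.13, and also under the plain library total, no filter, limma and the replicate block.

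SRP9 and SRP14, the pair that pauses translation, were not called as fitted. SRP14 stood at 105, 108 and 100.45 RPKM in the libraries labelled knockdown, below the 147, 207 and 115 RPKM in those labelled control (−0.58 ± 0.22, adjusted p = 0.0927). SRP9 was the one SRP gene that varied more among the libraries labelled knockdown, at 112, 169 and 176 RPKM, against 185, 185 and 150 RPKM in those labelled control (−0.18 ± 0.20, adjusted p = 0.534). With GC and length trends removed, SRP9 was called higher (0.79 ± 0.15, adjusted p = 0.0148, edgeR). Of the RNA around which these proteins assemble, the copy RN7SL2 was higher and RN7SL1 was not called: RN7SL2 stood at 168, 217 and 138 RPKM in the libraries labelled knockdown, against 16.9, 78.2 and 31.7 RPKM in those labelled control (2.05 ± 0.52, adjusted p = 0.0315), and RN7SL1 at 120, 152 and 100.04 RPKM, against 30.1, 87.6 and 27.4 RPKM (1.37 ± 0.46, adjusted p = 0.0702). Both have many near copies and are uncertain.

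At the receptor, SRPR stood at 34.2, 32.4 and 34.0 RPKM in the libraries labelled knockdown, against 20.7, 19.9 and 21.4 RPKM in those labelled control. No library labelled knockdown came near the control range, and control replicate 2 lay with the other controls. SRPR, now named SRPRA, was 1.62-fold higher (0.70 ± 0.10, adjusted p = 0.00521, edgeR), on chromosome 11, whose 787 tested protein-coding genes had a median of 0.31. SRPRB, the subunit that anchors it in the membrane, averaged 17.1 ± 0.192 RPKM in the libraries labelled knockdown and 19.9 ± 3.45 RPKM in those labelled control, with overlap between groups (−0.21 ± 0.15, adjusted p = 0.322).

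The subunits of the Sec61 channel did not share a direction. SEC61A1, the pore itself, stood at 77.5, 77.6 and 77.9 RPKM in the libraries labelled knockdown, above the 62.6, 50.4 and 61.0 RPKM in those labelled control. It was not called (0.42 ± 0.14, adjusted p = 0.0613), although DESeq2 called it (adjusted p = 0.0117). Its scarcer paralog SEC61A2 showed the same order, at 12.4, 12.02 and 11.3 RPKM in the libraries labelled knockdown, against 9.20, 7.50 and 10.2 RPKM in those labelled control (0.41 ± 0.15, adjusted p = 0.0795).

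SEC61G, a small subunit that clamps the pore, stood at 30.0, 27.5 and 24.5 RPKM in the libraries labelled knockdown, against 56.4, 74.7 and 43.4 RPKM in those labelled control. Both ranges were apart and the level was 2.13-fold lower (−1.09 ± 0.21, adjusted p = 0.0128, edgeR). SEC61B, the other small subunit, averaged 69.1 ± 3.97 RPKM in the libraries labelled knockdown and 85.7 ± 25.1 RPKM in those labelled control (−0.31 ± 0.21, adjusted p = 0.317). The call of SEC61G ended when trends with GC content and length were removed (−0.02 ± 0.17, adjusted p = 0.952).

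SEC62 had the second largest fall of the 42 genes and the smallest p. It makes a membrane protein that helps short chains into the channel and also recruits ER for autophagy during recovery from stress. SEC62 stood at 3.65, 4.15 and 4.36 RPKM in the libraries labelled knockdown, against 12.4, 14.0 and 11.6 RPKM in those labelled control, including control replicate 2. This 3.13-fold lower level (−1.64 ± 0.13, adjusted p = 0.00061, edgeR) was called in every fit tried. The size was smaller with GC and length trends removed (−1.02 ± 0.18), and with control replicate 2 also left out (−0.80 ± 0.07). The genes of chromosome 3, where SEC62 lies, had a median of −0.29. SEC63, its partner, which recruits the chaperone BiP to the channel, stood at 13.9, 13.4 and 13.9 RPKM in the libraries labelled knockdown, against 23.1, 18.4 and 21.4 RPKM in those labelled control (−0.61 ± 0.12, adjusted p = 0.0149). SEC63 was no longer called with GC and length trends removed (−0.22 ± 0.10, adjusted p = 0.151).

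Of the 4 TRAP subunits, SSR4 was lower and the other 3 were not called. SSR4, the delta subunit, stood at 1.13, 0.954 and 1.182 RPKM in the libraries labelled knockdown, against 2.92, 5.58 and 2.07 RPKM in those labelled control. The groups did not overlap, and SSR4 was 3.23-fold lower (−1.69 ± 0.36, adjusted p = 0.0181, edgeR), the largest fall of the 42 genes. Its processed copy SSR4P1 took 20.5% of the counts of both and its own counts were 105, 116 and 112 under the knockdown label, against 26, 24 and 63 under the control label, so the division of reads between them is uncertain.

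SSR1, SSR2 and SSR3 had log2 fold changes of 0.09, −0.42 and −0.01, with adjusted p from 0.476 to 0.95. SSR2 showed what control replicate 2 can do: it stood at 29.8, 31.3 and 31.4 RPKM in the libraries labelled knockdown, against 29.6, 71.7 and 22.5 RPKM in those labelled control.

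In signal peptidase 1 of 5 genes was lower. SPCS1, a subunit without catalytic activity, stood at 29.8, 31.9 and 28.0 RPKM in the libraries labelled knockdown, against 44.5, 47.0 and 35.2 RPKM in those labelled control (1.41-fold lower, −0.50 ± 0.14, adjusted p = 0.0448, edgeR). The groups did not overlap. In GENCODE 29, SPCS1 overlaps exons of NEK4 on the opposite strand over 2698 bases, but the SPCS1 model there has 5324 exonic bases and the one counted has 2344, so how much of the counted model is shared is not known here. The SPCS1 call ended under 12 of the other settings, the replicate block and RLE scaling among them.

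The catalytic subunits of signal peptidase, SEC11A and SEC11C, were not called. SEC11A stood at 27.0, 26.3 and 25.4 RPKM in the libraries labelled knockdown, below the 41.4, 88.1 and 33.1 RPKM in those labelled control (−1.05 ± 0.35, adjusted p = 0.0704). SEC11C stood at 24.6, 24.04 and 21.9 RPKM in the libraries labelled knockdown, against 35.2, 41.4 and 23.6 RPKM in those labelled control (−0.51 ± 0.21, adjusted p = 0.117). SPCS2 (0.23) and SPCS3 (0.02) overlapped between groups, with adjusted p of 0.527 and 0.957. Pseudogene copies held 40.3% of the counts of SPCS2 and its copies together.

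Of the 9 OST genes, DAD1 was lower and 8 were not called. DAD1, a small subunit named for its loss causing cell death in hamster cells, stood at 99.6, 97.7 and 90.6 RPKM in the libraries labelled knockdown, against 190, 272 and 154 RPKM in those labelled control. The groups did not overlap, and DAD1 was 2.14-fold lower (−1.10 ± 0.21, adjusted p = 0.0129, edgeR). Like SRP54 it lies on chromosome 14, and its log2 fold change minus that chromosome's median was −0.60. It was still called with GC and length trends removed (−0.79 ± 0.09, adjusted p = 0.00311).

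The abundant scaffold subunits of OST differed by less than the spread of the libraries labelled control. RPN1 averaged 80.7 ± 0.80 RPKM in the libraries labelled knockdown and 101.5 ± 36.3 RPKM in those labelled control, RPN2 122 ± 3.50 RPKM and 116 ± 17.8 RPKM, and DDOST 139 ± 2.59 RPKM and 175 ± 50.003 RPKM. OSTC, which ties the STT3A form of the enzyme to the channel, averaged 40.6 ± 2.30 RPKM in the libraries labelled knockdown and 51.2 ± 25.9 RPKM in those labelled control. Adjusted p for these 4 ran from 0.279 to 0.728.

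OST has 2 catalytic forms, STT3A, which works on chains still entering the channel, and STT3B, which picks up sites that were missed. STT3A stood at 39.4, 37.1 and 36.3 RPKM in the libraries labelled knockdown, against 24.6, 40.3 and 23.3 RPKM in those labelled control (0.36 ± 0.22, adjusted p = 0.273). STT3B stood at 26.0, 25.6 and 25.2 RPKM in the libraries labelled knockdown, against 35.2, 23.7 and 30.8 RPKM in those labelled control (−0.22 ± 0.16, adjusted p = 0.334).

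Control replicate 2 lay with the libraries labelled knockdown for both genes. STT3A made up 60.2%, 59.2% and 59.0% of the summed STT3 level in the libraries labelled knockdown, against 41.1%, 62.99% and 43.1% in those labelled control. Without control replicate 2, STT3A was called higher (0.66, adjusted p = 0.00013) and STT3B lower (−0.36, adjusted p = 0.00497). TUSC3 and MAGT1, alternative oxidoreductase subunits of the STT3B form, stood far apart in level at 22.6 ± 1.11 and 1.87 ± 0.121 RPKM in the libraries labelled knockdown. In those labelled control they averaged 22.8 ± 2.50 and 1.94 ± 0.166 RPKM, and neither was called (adjusted p = 0.96 and 0.813).

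**Figure D2:**
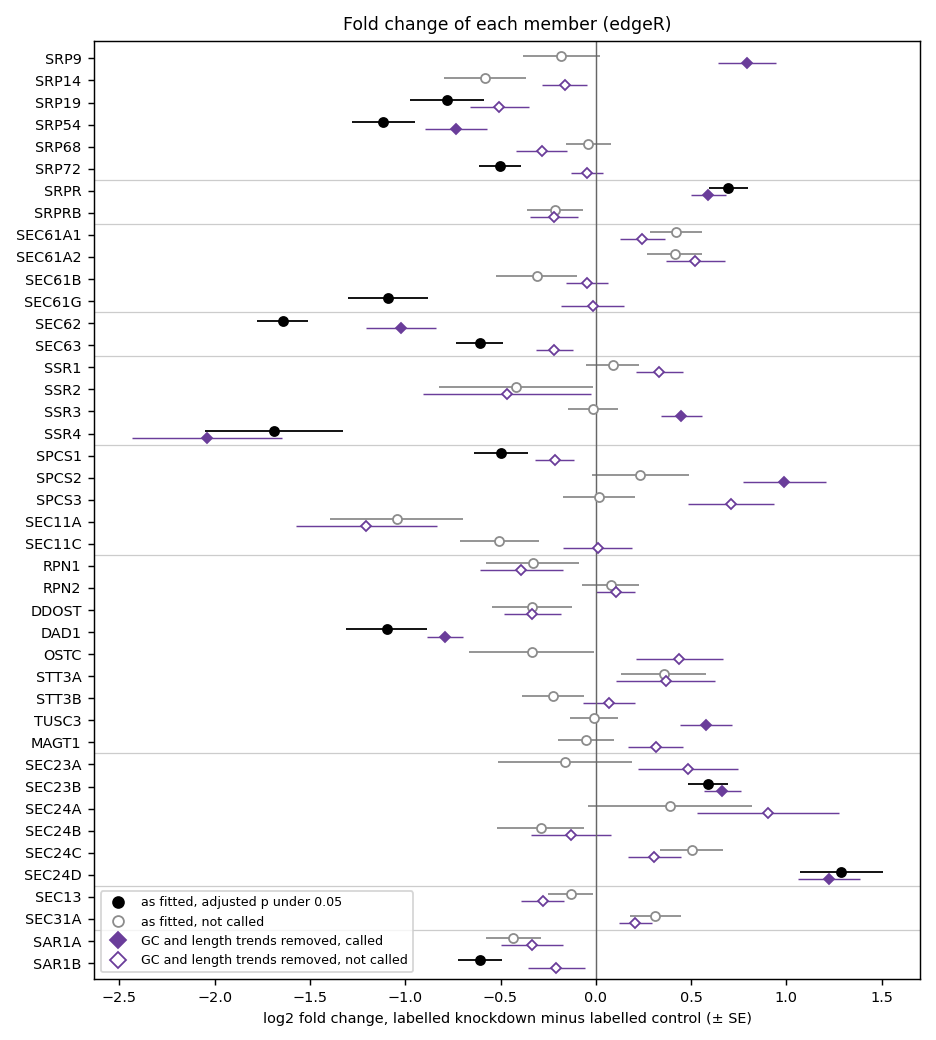
Log2 fold change of each gene, labelled knockdown minus labelled control, with its standard error, as fitted (circles) and with GC and length trends removed (purple diamonds), filled where the adjusted p was under 0.05. SEC62, SSR4, SRP54 and DAD1 stayed called and lower and SRPR, SEC23B and SEC24D stayed called and higher, while SRP9, SSR3, SPCS2 and TUSC3 were called with the trends removed but not as fitted.

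The inner COPII coat held 2 of the 3 genes that rose. SEC24D, which with SEC24C reads one class of cargo export signals, stood at 5.70, 5.49 and 5.69 RPKM in the libraries labelled knockdown, against 2.72, 1.56 and 2.62 RPKM in those labelled control. No library of one group reached the range of the other, and SEC24D was 2.44-fold higher (1.29 ± 0.22, adjusted p = 0.00817, edgeR), the largest rise of the 42 genes. The genes of its chromosome 4 had a median of −0.16. It was called in every fit tried, with GC and length trends removed at 1.22 ± 0.16.

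SEC23B, one of the paralogs that activate the SAR1 GTPase, stood at 37.1, 33.8 and 35.4 RPKM in the libraries labelled knockdown, against 23.7, 22.7 and 24.2 RPKM in those labelled control. Here control replicate 2 lay with the other controls, and the level was 1.51-fold higher (0.59 ± 0.11, adjusted p = 0.00971). The genes of its chromosome 20 had a median of 0.28. Its paralog SEC23A stood at 9.29, 9.42 and 9.73 RPKM in the libraries labelled knockdown, against 13.3, 4.95 and 13.6 RPKM in those labelled control (−0.16 ± 0.35, adjusted p = 0.76). Without control replicate 2, SEC23A was called lower (−0.50, adjusted p = 0.00035).

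The other SEC24 paralogs were not called. SEC24C, the most abundant, stood at 36.9, 34.9 and 35.9 RPKM in the libraries labelled knockdown, above the 28.1, 19.6 and 28.3 RPKM in those labelled control (0.50 ± 0.17, adjusted p = 0.0668), and shares 42.9% of its GENCODE 29 exonic bases with a gene model on the opposite strand. SEC24A stood at 4.67, 6.02 and 6.11 RPKM in the libraries labelled knockdown, against 5.23, 1.62 and 5.94 RPKM in those labelled control (0.39 ± 0.43, adjusted p = 0.535). SEC24B stood at 7.79, 6.71 and 6.78 RPKM in the libraries labelled knockdown, against 9.54, 5.82 and 10.7 RPKM in those labelled control (−0.29 ± 0.23, adjusted p = 0.378).

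Within the SEC24 family the shares of SEC24D and SEC24B were apart between the libraries as labelled, while those of SEC24C and SEC24A overlapped. SEC24C made up 66.2 ± 0.69% for the knockdown label and 63.2 ± 4.67% for the control label, and SEC24A 10.3 ± 1.61% and 9.89 ± 3.68%. The exon overlap of SEC24C with a model on the opposite strand limits all these shares. SEC24D made up 10.4%, 10.3% and 10.5% of the summed SEC24 level in the libraries labelled knockdown, against 5.97%, 5.45% and 5.50% in those labelled control. SEC24B made up 14.2%, 12.6% and 12.5% in the libraries labelled knockdown, against 20.9%, 20.4% and 22.4% in those labelled control. Both shares were apart in all 6 libraries, control replicate 2 included, although the summed level there was 28.6 RPKM, against 45.6 and 47.5 RPKM in the other controls. A share within a library does not depend on how its total was scaled.

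**Figure D3:**
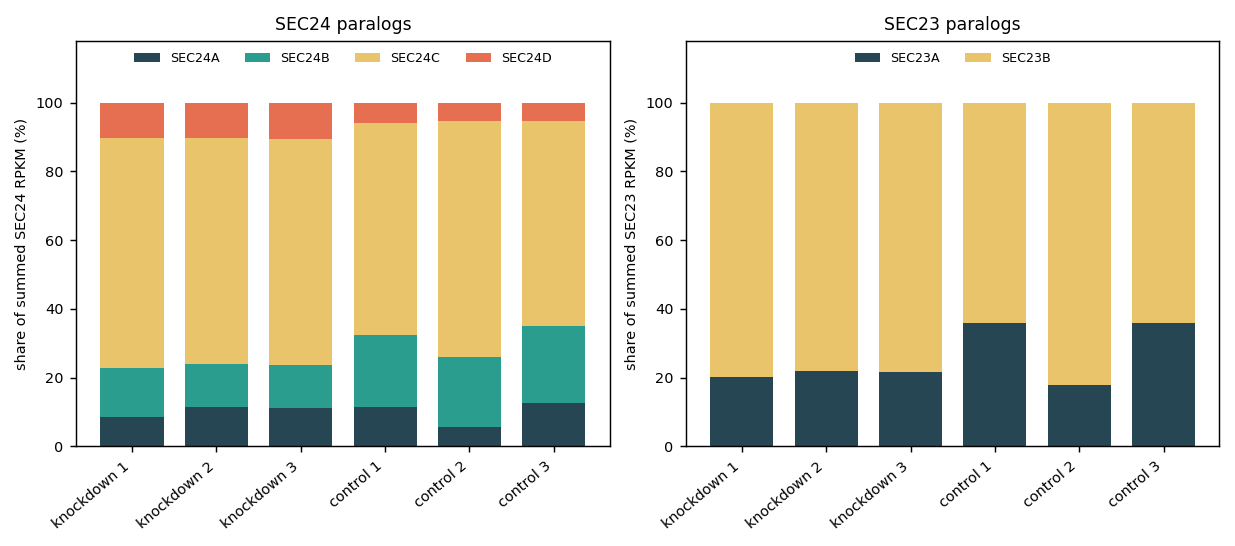
Share of each paralog in the summed SEC24 level (left) and the summed SEC23 level (right), in percent of RPKM, for each of the 6 libraries. The SEC24D segment is 10.3% to 10.5% for the knockdown label and 5.45% to 5.97% for the control label, and the SEC23A segment of control replicate 2 (17.9%) is about as small as those of the libraries labelled knockdown.

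Ratios between paralogs that can take the same place were compared for 12 pairs as differences in log2(RPKM + 1) within a library. The groups did not overlap for 5 pairs, and in these the exact two-sided permutation test gave p = 0.1, which is the lowest possible with 3 against 3, with an adjusted p of 0.24 over the pairs. Levels of single genes did not overlap for 23.9% (knockdown label higher) and 26.0% (lower) of all genes, and no such share was computed for ratios. SEC24D over SEC24B had the largest difference, at −0.29 ± 0.09 in the libraries labelled knockdown, against −1.51 ± 0.18 in those labelled control, a difference of 1.22. SEC24C over SEC24B differed by 0.75, SEC24D over SEC24C by 0.48, SEC24B over SEC24A by −0.63 and SEC11C over SEC11A by 0.44. Apart from SEC11C over SEC11A, these pairs are drawn from the same SEC24 genes and are not separate results. With a pseudocount of 0.1 in place of 1, SEC24D over SEC24C differed by 0.77 and SEC24D over SEC24B by 1.54, and without control replicate 2 SEC11C over SEC11A differed by 0.20. SEC24C over SEC24A differed by 0.11, SEC24D over SEC24A by 0.59 and SAR1B over SAR1A by −0.13, all with overlap. The ratio of SEC61A2 to SEC61A1 differed by −0.05 and that of MAGT1 to TUSC3 by −0.08, both with overlap. For STT3B over STT3A and SEC23B over SEC23A the groups overlapped through control replicate 2. Without that library the groups did not overlap for 10 pairs. Groups of 2 against 3 separate more easily, the lowest p of the permutation test is then 0.2, and no conclusion is drawn from that count.

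**Figure D4:**
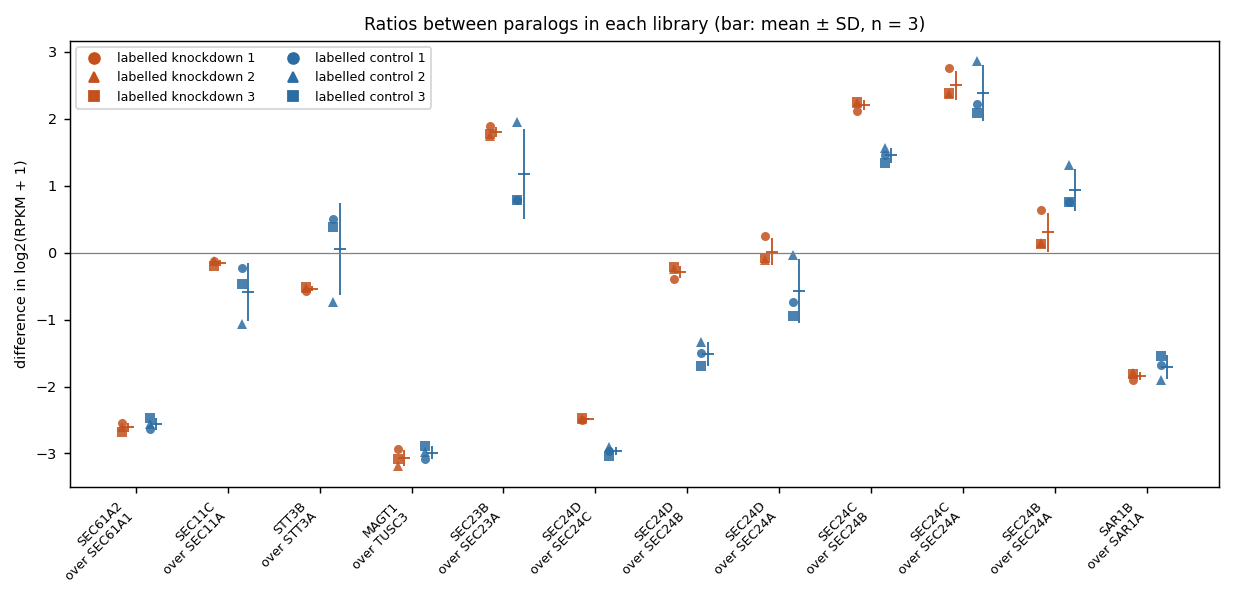
Difference in log2(RPKM + 1) between paralogs in each library, with the mean and SD of 3 libraries, those labelled knockdown in orange left of those labelled control in blue. The points of SEC24D over SEC24B are apart between groups. For STT3B over STT3A (−0.74) and SEC23B over SEC23A (1.95), control replicate 2 (blue triangle) lies just beyond the libraries labelled knockdown, away from the other controls.

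The outer COPII coat was not called. SEC13, which also serves the nuclear pore, averaged 29.6 ± 0.481 RPKM in the libraries labelled knockdown and 32.5 ± 3.15 RPKM in those labelled control (−0.13 ± 0.12, adjusted p = 0.444). Its partner SEC31A averaged 11.8 ± 0.489 RPKM in the libraries labelled knockdown and 9.54 ± 1.32 RPKM in those labelled control (0.31 ± 0.13, adjusted p = 0.127).

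SAR1B, the GTPase form whose loss in people causes a failure to export chylomicrons, stood at 4.86, 4.97 and 4.71 RPKM in the libraries labelled knockdown, against 8.09, 7.10 and 6.96 RPKM in those labelled control. The groups did not overlap and the level was 1.52-fold lower (−0.61 ± 0.11, adjusted p = 0.0114, edgeR), a call that ended with GC and length trends removed (−0.21 ± 0.15, adjusted p = 0.349). SAR1A stood at 20.8, 19.5 and 18.9 RPKM in the libraries labelled knockdown, below the 28.0, 29.9 and 22.1 RPKM in those labelled control (−0.43 ± 0.14, adjusted p = 0.0682). SAR1B and SEC24A lie on opposite strands of chromosome 5 and share 385 exonic bases.

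Control replicate 2 lay on opposite sides for the early and the late steps of the pathway. It was the highest of the 6 libraries for 22 of the 32 genes outside COPII and the lowest for 5, whereas for the 10 COPII genes it was the highest for 2 and the lowest for 7. Over all genes tested it was the highest for 33.5% and the lowest for 32.2%. The widest gaps to the mean of control replicates 1 and 3 were 1.46 for SSR2 and 1.24 for SEC11A, and −1.78 for SEC24A and −1.44 for SEC23A, on the log2 scale. The gap fell with exonic length, with Pearson's r = −0.43 and Spearman's rho = −0.46 over the 42 genes, and −0.24 and −0.30 over 17302 genes. These are descriptions within shared libraries, and what sets this library apart was not tested.

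**Figure D5:**
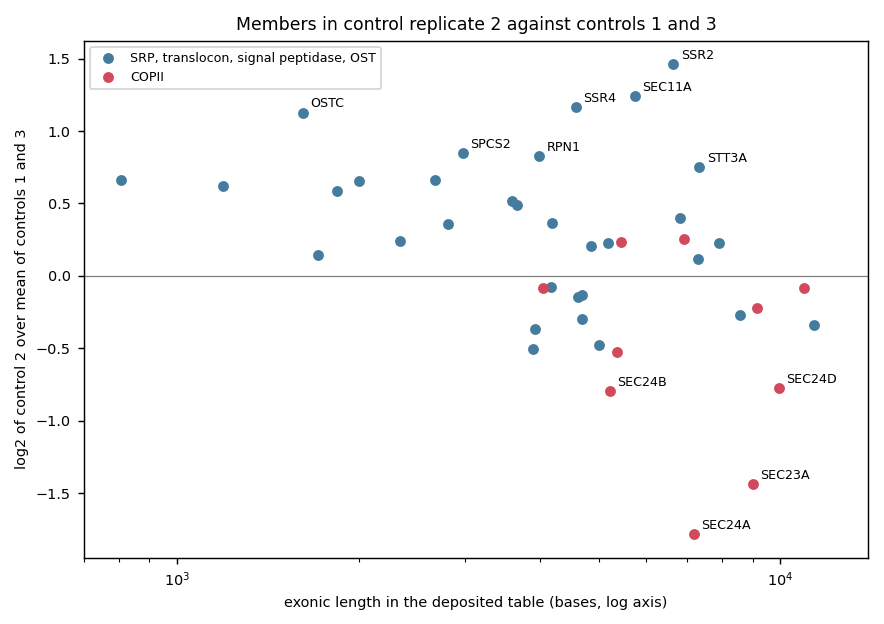
Log2 of the level in control replicate 2 over the mean of control replicates 1 and 3, against the exonic length of each gene in bases on a log axis, with COPII genes in red. SSR2 (1.46) and SEC11A (1.24) lie highest and the COPII genes SEC24A and SEC23A lowest.

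Fold changes across all genes moved with base composition. Genes with under 40% GC had a median log2 fold change of −0.58 over 2538 genes, and those with 48% or more a median of 0.15 over 9113 genes. For the 42 genes the medians were −0.17 for 10 genes with under 40% GC, −0.29 for 19 genes between and −0.21 for 13 genes with 48% or more. Of the 10, 0 were called higher and 4 lower, against 2.05% and 42.75% of all genes under 40% GC. Of the 19, 2 were higher and 4 lower (all genes 5.66% and 17.89%). Of the 13, 1 was higher and 2 were lower (13.82% and 4.97%). Pearson's r between fold change and GC content was 0.06 over the 42 genes and 0.38 over all genes with a known composition. The difference between these was not tested. With GC and length trends removed, 7 of the 42 genes were higher and 4 lower, against 10.6% and 11.3% of the 17302 genes so tested, and 7 of the 13 calls remained. With control replicate 2 left out as well there were 17 higher and 11 lower, against 24.6% and 24.0% of all genes.

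As sequence background, RefSeq promoter windows (GRCh38.p14, 250 bases before to 50 after the start) were found for 36 of the 42 genes. They were searched on both strands for letters known from the unfolded protein response, since many of these genes are its targets in other settings. The word TGACGTGG, known as the unfolded protein response element, stood in the window of 6 of the 36 genes (16.7%), against 0.927% of 27305 genes of every class with a window. The ER stress elements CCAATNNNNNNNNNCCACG and ATTGGNCCACG stood in none of the 36, as in 0.0916% and 0.0696% of all genes. The shorter core ACGTGG, which lies inside the first word, stood in 44.4% of the 36 and 11.6% of all, the letters CCAAT in 18 of the 36 and in 39.7% of all, TGATGNAA in 2.78% and 4.46%, and TGACGTCA in 0 and 2.25%. Of the 6 genes with TGACGTGG, SEC62, SRP19 and SSR4 were lower in the libraries labelled knockdown and SSR3, SEC23A and SEC24A were not called. Lower calls made up 23.8% of the 42 genes and 14.7% of all genes. With GC and length trends removed, SRP19 was no longer called (adjusted p = 0.0586, edgeR). In that fit SSR3 was called higher (0.45 ± 0.11, adjusted p = 0.0259). The division of reads for SSR4 is uncertain, and a link between the word and the calls was not tested. A match of letters is a description and not a site. The 250 bases before the start of SEC62, the gene with the smallest p, lie at chr3:169966557-169966806 on the plus strand, with the match in capitals on its reverse strand:
SEC62: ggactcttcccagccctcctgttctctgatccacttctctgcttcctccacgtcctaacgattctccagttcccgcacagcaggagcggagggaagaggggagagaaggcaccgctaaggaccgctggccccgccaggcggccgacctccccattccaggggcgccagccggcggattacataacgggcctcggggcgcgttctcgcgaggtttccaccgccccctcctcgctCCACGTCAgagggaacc

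The matches in the other 5 windows are shown with 20 bases on each side, for comparison of their surroundings, in the same capitals. They lie at chr5:112861155-112861202 (plus strand) for SRP19, chrX:153794519-153794566 (plus) for SSR4, chr3:156554139-156554186 (minus) for SSR3, chr14:39103212-39103259 (minus) for SEC23A and chr5:134648586-134648633 (plus) for SEC24A. The match begins 17 bases before the start in SEC62, 4 before it in SEC23A and further before it in the other 4.
SRP19: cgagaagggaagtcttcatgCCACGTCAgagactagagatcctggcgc
SSR4: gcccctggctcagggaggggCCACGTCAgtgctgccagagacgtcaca
SSR3: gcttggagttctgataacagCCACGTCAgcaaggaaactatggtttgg
SEC23A: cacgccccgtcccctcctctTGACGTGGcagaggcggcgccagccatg
SEC24A: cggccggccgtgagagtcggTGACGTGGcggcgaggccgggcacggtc

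Other genes of the pathway, in 7 lists of 145 genes with 140 tested, were called in both directions, 19 higher (13.6%) and 24 lower (17.1%), against 9.29% and 14.7% of all genes. The median log2 fold change of all genes, for reading each list's own, was −0.04. Of the genes named from these lists with at least 5 RPKM, those higher ran from 49.6% GC (TRAM2) to 62.4% (ARFGAP1). Those lower ran from 32.5% (EMC2) to 39.3% (DPM1), apart from COPB1 (40.8%) and TMEM147 (58.2%). Among all genes under 40% GC, 42.75% were called lower. List values with GC and length trends removed are not given here, and the cause was not tested. Among COPII assembly factors and cargo receptors 1 of 33 was higher and 10 were lower, and the list's median was −0.30. The tether USO1, which catches ER vesicles at the Golgi, stood at 5.91 ± 0.426 RPKM in the libraries labelled knockdown and 18.7 ± 1.25 RPKM in those labelled control (−1.66 ± 0.12, adjusted p = 0.000438, edgeR), and ERGIC2, of the intermediate compartment, at 2.58 ± 0.378 and 11.7 ± 1.66 RPKM (−2.18 ± 0.17). RAB1B, a GTPase of the same route, was higher, at 97.1 ± 3.49 and 62.5 ± 2.88 RPKM (0.64 ± 0.11). Its paralog RAB1A, named after its values were seen, was lower, at 34.5 ± 2.04 and 53.2 ± 6.32 RPKM (−0.63 ± 0.13, adjusted p = 0.0156, edgeR). Among other insertion factors of the ER membrane 5 of 27 were higher, with TRAM2 (0.92 ± 0.15) and NOMO1 (0.72 ± 0.12), which has near-identical copies and is uncertain, and 5 were lower, with EMC2 of the membrane insertase EMC (−2.39 ± 0.18) and TMEM147 (−0.89 ± 0.14).

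Among the enzymes around OST, of 23 genes that build the lipid-linked glycan 4 were higher and 2 lower, and their median was 0.11. DPAGT1, which starts the glycan, stood at 13.8 ± 0.426 RPKM in the libraries labelled knockdown and 7.59 ± 0.492 RPKM in those labelled control (0.86 ± 0.11, adjusted p = 0.00325, edgeR), and the mannosyltransferase ALG12 (0.74 ± 0.14) was higher too. DPM1 (−0.65 ± 0.16) and ALG6 (−0.63 ± 0.17) were lower. Of 14 genes of glycan trimming and the lectin cycle 2 were higher, GANAB and PRKCSH, the subunits of glucosidase II that trim the glycan once OST has moved it, and 1 was lower, UGGT2, a gene below 5 RPKM that was named after its values were seen. GANAB averaged 177 ± 3.73 RPKM in the libraries labelled knockdown and 102 ± 6.33 RPKM in those labelled control (0.80 ± 0.14, adjusted p = 0.00987), and PRKCSH 83.1 ± 2.54 and 56.3 ± 7.73 RPKM (0.56 ± 0.15, adjusted p = 0.0327).

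Of the remaining lists, 3 of 18 genes of the COPI coat and the receptors that return escaped ER proteins were higher, with ARFGAP2 at 0.57 ± 0.11 and ARFGAP1 at 0.53 ± 0.11, and 1 was lower, the coat subunit COPB1 (−0.43 ± 0.12). Of 21 genes of the TRAPP and COG tethers 4 were higher, with COG8 (0.66 ± 0.11) and COG7 (0.66 ± 0.15), both on chromosome 16, and 4 were lower, with TRAPPC6B (−1.19 ± 0.13) on chromosome 14 and TRAPPC13 (−0.79 ± 0.12). Of 4 further genes around OST, 1 was lower, NGLY1 (−1.003 ± 0.15), the enzyme that strips N-glycans from misfolded proteins.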

How the data were processed

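Total RNA of the 6 libraries was depleted of ribosomal RNA, put through the EZ RNA methylation kit, a bisulfite conversion, and made into stranded libraries, per the labels' protocols. The aligner, strand setting and annotation, and whether the counted reads were from converted RNA, are not given in the sources used. Per the submitters' processing notes, HTSeq 0.6.1, StringTie 1, DESeq2 1.6.3, DESeq 1.18.0, edgeR 3.4.6, bcl2fastq 2.17.1.14 and build hg19 were used, with no role or order stated. Each gene has raw read counts in the deposited table and RPKM values that the authors computed from them, which equalled the counts scaled by exonic length and library total within 0.006 for 100% of values. Columns were tied to samples by the second name in each description. Taken alone, these names would swap the groups relative to the titles.

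The test on counts was that of edgeR 4.0.16 under R 4.3.3 (quasi-likelihood F test, TMM, filterByExpr, robust estimation, all 6 libraries sharing 1 estimate of spread), with Benjamini-Hochberg adjustment over 17805 genes and a threshold of 0.05. Fold changes are log2 values ± SE and levels are mean ± SD over 3 libraries. Paralog ratios used the deposited RPKM with a pseudocount of 1 (SciPy 1.17.1). Alternatives were DESeq2 1.42.0, limma 3.58.1, other scalings and filters, a replicate block, leaving out each library, and smooth GC and length trends removed per library (mgcv 1.9.3, GC of the longest GENCODE 29 transcript, known for 97.2% of tested genes). Chromosome medians are over tested protein-coding genes. Exonic lengths are those of the table and can include rare exons, which lowers RPKM.

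The 42 genes, the lists and the tests were chosen with earlier results of these data known. Every one of the 42 genes is given, with values in each library for called genes and for paralogs other than TUSC3 and MAGT1. From each list the 2 called genes with the smallest p in each direction and at least 5 RPKM in the higher group are named. UGGT2 and RAB1A are named besides. PECAM1 was sought as a marker of endothelium, but no gene of that symbol was found in the deposited table.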

Additional observations from a re-analysis of the deposited data

How the results depend on the processing

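Of the 13 calls, SRP54, SEC62, SRPR and SEC24D held under every alternative tried. The other 9 were lost when any 1 library labelled knockdown was left out, and leaving out 1 library at a time gave 2 to 9 genes called higher and 2 to 16 lower. A fit with the replicate number as a block gave 3 higher and 8 lower, without SRP72 and SPCS1. Same-numbered libraries did not deviate together (correlations of −0.04, 0.06 and 0.001). This shows no effect shared by number but cannot exclude a pairing, and the labels do not say whether the numbers pair libraries. Counts of genes called higher were 6 with DESeq2, 6 with upper-quartile factors, 9 with voom and sample weights and 7 with GC and length trends removed. Counts called lower were 6 with the plain library total, 6 with limma at either pseudocount, 17 with voom and 4 with trends removed. Removing the trends and leaving out control replicate 2 together, an alternative chosen after seeing the data, gave 17 higher and 11 lower. The median of all genes was −0.04 as fitted, 0.13 with the plain library total and 0.08 and 0.15 with limma at pseudocounts of 1 and 0.1, and calls over all genes were 1654 higher and 2613 lower as fitted, 1888 and 1649 with the plain total, 2299 and 1527 with limma at a pseudocount of 1, 2021 and 1530 at 0.1, and 1841 and 1949 with trends removed.

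TRDMT1 passed the threshold, higher in the libraries labelled knockdown, with the plain total (0.80), DESeq2 (0.64), limma (0.25 at a pseudocount of 1, 0.66 at 0.1), voom (0.66), trends removed (1.10) and trends removed without control replicate 2 (1.46). Over the libraries left out singly it ran from 0.45 to 0.79, and it passed without control replicate 2 (adjusted p = 0.00249).

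Sign changes came in genes not called as fitted, except SEC61G, and the cause was not tested. The plain total gave SRP68 0.138, SSR3 0.152, TUSC3 0.172, MAGT1 0.126 and SEC13 0.0505. Upper-quartile factors gave SRP68 0.0178, SSR3 0.0453, TUSC3 0.0455 and MAGT1 0.0034. Testing with no filter gave SRP68 0.0379, SSR3 0.0597, TUSC3 0.0684 and MAGT1 0.0252. RLE factors gave SSR3 0.0075 and TUSC3 0.0125. DESeq2 gave SSR3 0.0074 and TUSC3 0.0127. Limma at a pseudocount of 1 gave SRP68 0.137, SSR3 0.165, TUSC3 0.165, MAGT1 0.0826, SEC23A 0.116 and SEC13 0.0494. Limma at 0.1 gave SRP68 0.141, SSR3 0.172, TUSC3 0.171, MAGT1 0.12, SEC23A 0.15 and SEC13 0.0508. Voom gave SSR1 −0.0684, SSR2 0.0945, TUSC3 0.0248 and MAGT1 0.0104. Removing the trends gave SRP9 0.794, SSR3 0.45, SEC11C 0.0095, OSTC 0.439, STT3B 0.0685, TUSC3 0.577, MAGT1 0.314 and SEC23A 0.486. Leaving out control replicate 2 as well gave SRP9 0.745, SEC61G 0.099, SSR2 0.264, SSR3 0.425, SEC11C 0.171, OSTC 0.734, TUSC3 0.726, MAGT1 0.409 and SEC23A 0.217.

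With each library left out singly the values ran from −0.293 to 0.0015 for SRP9, −0.102 to 0.0251 for SRP68, −0.0114 to 0.244 for SSR1, −0.716 to 0.247 for SSR2, −0.0779 to 0.142 for SSR3, −0.135 to 0.167 for SPCS3, −0.5002 to 0.0033 for RPN1, −0.0096 to 0.212 for RPN2, −0.604 to 0.146 for OSTC, −0.0902 to 0.0738 for TUSC3, −0.0894 to 0.0212 for MAGT1 and −0.498 to 0.055 for SEC23A. Paralog pairs without overlap numbered 5 to 10. SEC24C over SEC24A ran from −0.04 to 0.35, and was −0.0379 with a pseudocount of 0.1. With 3 libraries a group, fold changes near 0 cannot be given a direction.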
